A study of Mus musculus with 4 samples.

Results

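The genes described are 39 liver genes, most of them coding for proteins that hepatocytes secrete into the blood, with a few metabolic enzymes and regulators. They were chosen by measured values, because Alb and Afp were high in the BMP-activated (GFP+) fraction of the fetal liver (FL), and the other 37 are genes that liver is known for. All 39 symbols were found among the 23906 gene symbols of the deposited tables, and symbols listed at 0 were kept. RNA was sequenced from LSK-SLAM cells, a population enriched for haematopoietic stem cells (HSCs) and sorted as lineage-negative, Sca1-positive and cKit-positive with the SLAM surface profile. The cells came from BRE-GFP transgenic mice kept on a C57BL/6 background, in which phosphorylated Smad proteins binding a BMP responsive element drive GFP, so that GFP marks cells with active BMP signalling. The embryos came from heterozygous transgenic males and wild-type females, and the results shown by the study are those of line 1 of the independently derived transgenic lines it used. There were 4 samples, 1 for each group: FL GFP+ and FL GFP- from the liver at embryonic day 14, and BM GFP+ and BM GFP- from adult bone marrow (BM). All 4 share the transgene and the LSK-SLAM profile, but the preparation differed between the tissues. For BM only, a further myeloid antibody was added to the lineage stain, and BM cells were fractionated on Ficoll. The number of embryos or mice behind a sample is not given in the sources used here.

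No group had a replicate. A difference between 2 samples therefore has no replicate check, no test was made and no error can be given. Values are FPKM, sequenced fragments scaled to the length of the transcript and to the total mapped in the sample, and can be set side by side between genes. Differences between samples are on the log2(FPKM + 1) scale, which understates the change of low genes. A gene was counted as higher in a sample when its FPKM was more than 2 times that in the other, the fold the study used for its gene lists. The study asked for that fold in both tissues at once, and here it was applied to each pair of samples alone. The files hold neither read counts nor standard errors, so the precision of a single value is unknown and a gene listed at 0 is not shown to be silent. Because the samples are bulk RNA, fewer cells of a type and less RNA per cell cannot be told apart.

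Hepatocytes make most of the proteins of blood plasma: albumin and other carriers, the apolipoproteins of lipid particles, inhibitors of proteases, and clotting factors. Transcription factors of the HNF4, FOXA and C/EBP families act together on the promoters of these genes. In the embryo, liver precursors called hepatoblasts switch on Afp and Alb early, and enzymes of mature metabolism come later. At this stage the liver is also the main blood-forming organ, so HSCs lie among hepatoblasts there, whereas BM holds no hepatocytes.

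The check of the samples against their labels gave mixed values. H19 and Igf2, imprinted genes active in fetal tissue, were at 44.7 and 17.5 FPKM in FL GFP+ and at 42.1 and 12.5 in FL GFP-, and both were under 0.4 in the BM samples. All 10 housekeeping genes were above 0 in every sample, at 8.87 to 9195 FPKM. Kit, a gene of the gate, was at 102, 150, 22.2 and 76.6 FPKM in FL GFP+, FL GFP-, BM GFP+ and BM GFP-. This order is kept for all values given 4 at a time. Ly6a, the gene of Sca1, was at 19.7, 46.3, 286 and 146 FPKM, highest in BM GFP+. Slamf1, the gene of CD150 in the SLAM profile, was at 6.47, 12.6, 4.74 and 10.7 FPKM. Cd48, whose protein the SLAM profile excludes, was at 51.4, 17.4, 267 and 126 FPKM, and Procr, a marker of HSCs, was listed at 0 in BM GFP+ against 60.8 to 113 in the others. The 9 neutrophil markers, genes of the myeloid lineage, took 6.19% of the summed FPKM in BM GFP+ and 2.05% in BM GFP-. Among them Mpo and Elane, also genes of myeloid progenitors, were at 5777 and 3991 FPKM in BM GFP+. In BM GFP- these were at 4754 and 3042. In the FL samples the 9 markers took 0.0548% and 0.0284%. For this reason the counts between FL and BM are given below with either BM sample.

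In FL GFP+, 12 of the 39 genes reached 10 FPKM, 8 were between 1 and 10, 3 were above 0 but under 1, and 16 were listed at 0. FL GFP- had a different shape: 2 genes reached 10 FPKM, 20 were between 1 and 10, 8 were under 1 and 9 were at 0. In BM GFP+, 30 of the 39 were at 0 and 5 reached 10 FPKM. In BM GFP-, 15 were at 0, 16 were above 0 but under 1, 5 were between 1 and 10, and 3 reached 10. The median of the 39 was 2.64, 1.30, 0 and 0.0823 FPKM in the order given above. The share of all rows listed at 0 was 48.2%, 34.9%, 43.6% and 27.4% in the same order, so the GFP+ sample of each tissue also had more zeros over the whole table. At 10 FPKM or more were 27.6%, 27.5%, 28.3% and 27.2% of all rows, beside 30.8%, 5.13%, 12.8% and 7.69% of the 39. The FL GFP+ share was therefore near that of all rows, and the shares in the other samples were below it. Only Hpx, Apoa4 and Serpinc1 were at 0 in all 4 samples.

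**Figure D1:**
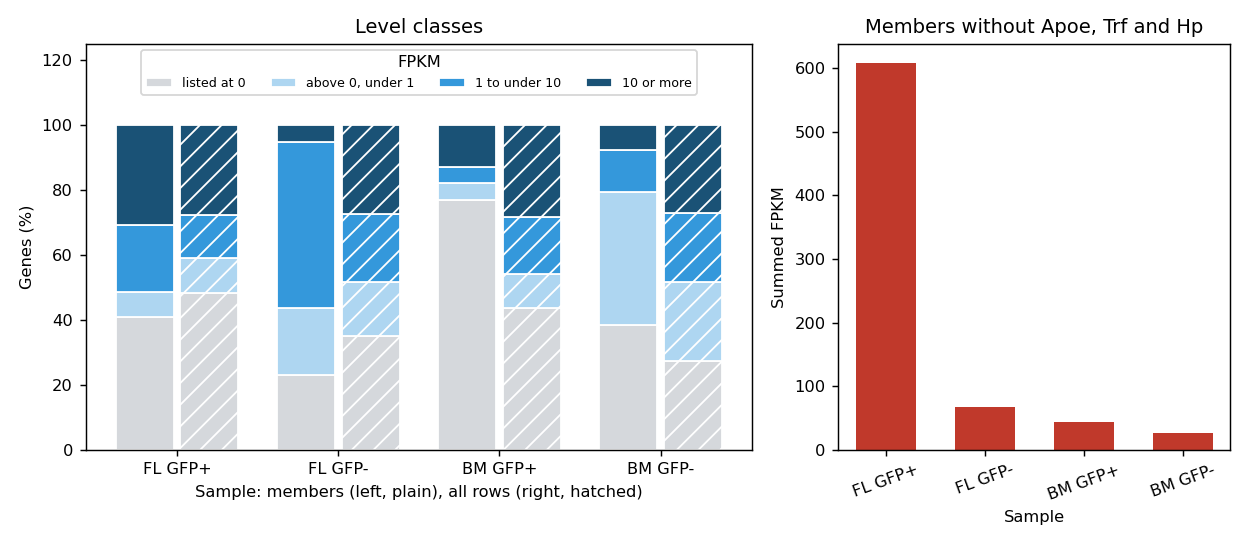
The 39 liver genes by class of FPKM (at 0, above 0 and under 1, 1 to 10, and 10 or more) in each of the 4 samples. FL GFP+ holds 12 genes at 10 FPKM or more and 16 at 0, whereas FL GFP- holds 20 between 1 and 10.

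The genes together took 0.251%, 0.138%, 0.128% and 0.161% of the summed FPKM of the samples, at 1623, 745, 1284 and 1173 FPKM. Apoe, which is not restricted to liver, made up 56.9%, 85.0%, 66.1% and 79.5% of these sums. Without Apoe, Trf and Hp, which were left out after their values were seen because they were abundant in BM, the other 36 genes summed to 607.8, 66.9, 44.4 and 26.7 FPKM. These sums follow from that removal and from the choice of the genes and show nothing beyond them. In FL GFP+, 10 of the 36 reached 10 FPKM. None did in FL GFP- or BM GFP-, and 2 did in BM GFP+.

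**Figure D2:**
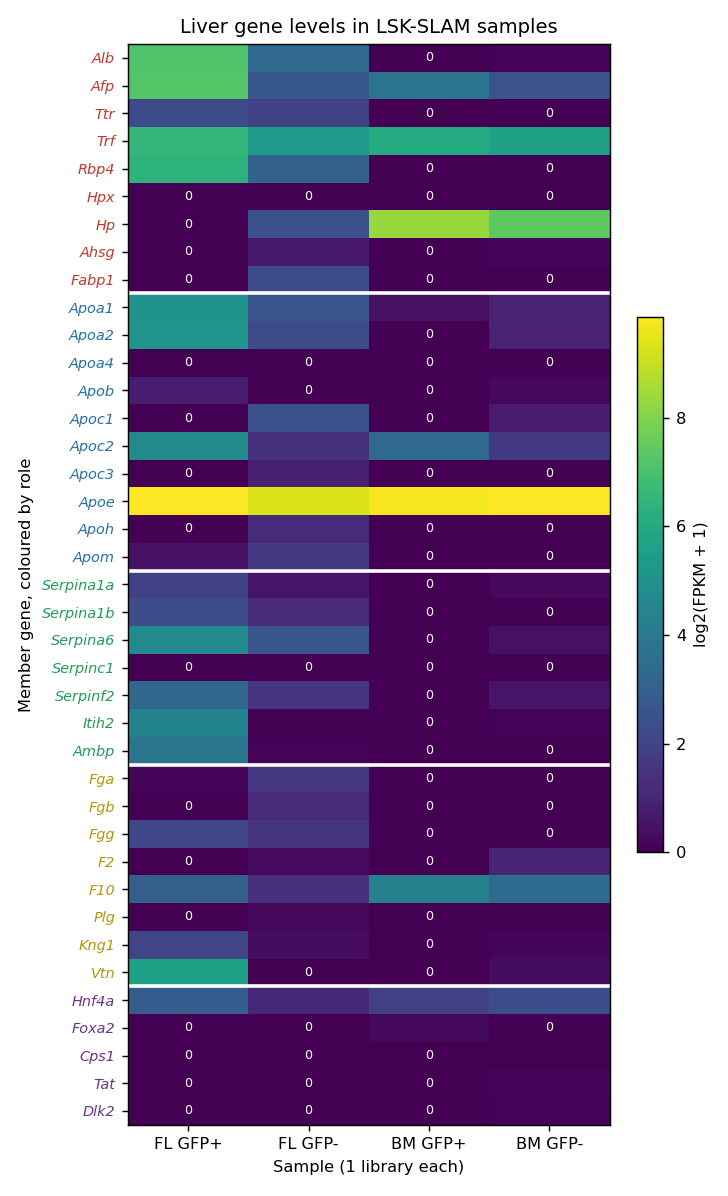
FPKM of each of the 39 liver genes, in rows grouped by role, in the 4 samples, in columns, coloured on the log2(FPKM + 1) scale. Apoe is high in every column, Hp in the BM columns, and Alb, Afp and Rbp4 in the FL GFP+ column.

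Promoters are shown because genes with the same short letters before their start had very different levels in FL GFP+. The windows are the 250 bases before the gene start in the RefSeq table for build GRCm38.p6, which held 38 windows for 30 of the 39 genes (Ttr, Trf, Hp, Apoc1, Apoc3, Serpina6, Plg, Kng1 and Cps1 were without one). The 4 printed all hold TTGCNNAA, the letters of a C/EBP site (N is any base), on either strand. Alb and Afp were high in FL GFP+, while Fabp1 and Fgb were listed at 0. Capitals mark matches to any of the motifs searched, each sequence runs 5′ to 3′ on the strand of its gene, and the last base is the one before the start.
Alb, chr5:90460620-90460869, plus strand: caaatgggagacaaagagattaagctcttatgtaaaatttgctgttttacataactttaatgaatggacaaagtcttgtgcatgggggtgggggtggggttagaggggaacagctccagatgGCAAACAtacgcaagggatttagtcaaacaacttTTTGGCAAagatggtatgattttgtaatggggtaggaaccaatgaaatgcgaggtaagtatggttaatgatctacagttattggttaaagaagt
Afp, chr5:90490464-90490713, plus strand: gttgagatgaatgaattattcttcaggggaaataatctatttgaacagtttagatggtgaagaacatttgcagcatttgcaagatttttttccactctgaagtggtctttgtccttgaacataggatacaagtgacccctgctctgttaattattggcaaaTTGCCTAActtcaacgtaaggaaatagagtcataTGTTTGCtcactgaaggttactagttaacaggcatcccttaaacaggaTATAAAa
Fabp1, chr6:71199629-71199878, plus strand: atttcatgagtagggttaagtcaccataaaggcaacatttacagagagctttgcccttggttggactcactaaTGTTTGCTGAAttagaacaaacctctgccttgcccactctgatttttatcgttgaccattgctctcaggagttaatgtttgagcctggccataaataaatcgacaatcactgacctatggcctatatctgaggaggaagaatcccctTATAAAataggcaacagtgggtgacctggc
Fgb, chr3:83049864-83050113, minus strand: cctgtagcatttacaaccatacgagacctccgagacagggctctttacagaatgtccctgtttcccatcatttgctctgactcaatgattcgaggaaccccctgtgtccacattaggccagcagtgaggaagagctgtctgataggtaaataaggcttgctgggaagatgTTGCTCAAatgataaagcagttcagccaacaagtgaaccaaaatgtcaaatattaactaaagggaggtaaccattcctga

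TTGCNNAA began at -94 from the start in Alb, -89 in Afp, -174 in Fabp1 and -80 in Fgb. It was found, on either strand, in 12 of the 38 windows of the liver genes (31.6%) and in 9.56% of all 32851 windows of the table. Of the FOXA letters, also searched on both strands, TGTTTGC was in 9 (23.7%) against 4.30% and TGTTTAC in 3 (7.89%) against 3.17%. TATAAA, the letters of a TATA box, searched on the sense strand only, was in 7 (18.4%) against 7.59%. It began at -7 in Afp, -28 in Rbp4, -30 in Fabp1, -60 in Apob, -96 in Apoe, -135 in Vtn and -212 in Apoa2. The search set no position for a match, so these letters need not be TATA boxes. CAAAGTCCA and CAAAGGTCA, letters of HNF4 sites searched on both strands, were in 0 of the 38 and in 0.384% and 0.426% of all windows. TTGCNNAA stood in 5 of the 14 windows of genes at 10 FPKM or more in FL GFP+ and in 7 of the 24 windows of the rest. TATAAA stood in 5 of 14 and 2 of 24. These letters may overlap each other, as the C/EBP and FOXA matches do in Fabp1, and a match is not evidence of binding.

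Carriers of the plasma held the highest levels after Apoe. Alb, serum albumin, was at 140, 9.49, 0 and 0.0737 FPKM. Afp, the fetal counterpart of albumin, was at 149, 5.66, 12.9 and 4.79 FPKM. Both were highest in FL GFP+, the pattern they were chosen for, but in BM Alb was under 0.1 FPKM whereas Afp was not. Rbp4, which carries retinol, was at 82.5, 7.67, 0 and 0 FPKM. Its FL GFP+ value was 10.7 times that in FL GFP-, against 14.7 times for Alb and 26.3 times for Afp.

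Trf and Hp departed from Alb. Trf, transferrin, the iron carrier, was at 91.6, 40.9, 66.5 and 47.8 FPKM, so its highest value was 2.24 times its lowest. Hp, haptoglobin, which binds free haemoglobin and is also stored in neutrophil granules, was at 0, 4.28, 325 and 166 FPKM. Its order was the reverse of that of Alb, with both BM samples above both FL samples. The 9 neutrophil markers were likewise higher in BM than in FL and in BM GFP+ than in BM GFP-. Between the FL fractions they were mixed: 5 of the 9 were higher in FL GFP+ and 3 were lower, as Hp was. Their summed FPKM was 354, 154, 61964 and 14940, with 3 and 2 of the 9 at 0 in FL GFP+ and FL GFP- and none in BM. Their part in the Hp values was not tested.

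The remaining 4 carriers were low. Ttr, the carrier of thyroid hormone, was at 3.65 and 2.85 FPKM in FL GFP+ and FL GFP- and at 0 in BM, a log2 difference of 0.27 between the FL fractions. Fabp1, the fatty acid binding protein of liver, was at 3.92 FPKM in FL GFP- and at 0 in FL GFP+ and in BM. Ahsg, fetuin-A, was at 0.574 in FL GFP-, at 0.119 in BM GFP- and at 0 in both GFP+ samples. Hpx, which binds haem, was at 0 everywhere. Ttr, Fabp1 and Ahsg are abundant products of hepatocytes, and none of them stood with Alb in FL GFP+.

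Apolipoproteins fell into groups as well. Apoa1, the main protein of high-density lipoprotein, was at 32.1, 5.21, 0.352 and 0.899 FPKM. Apoa2, its partner in those particles, was at 33.9, 3.84, 0 and 0.942. Apoc2, the cofactor of lipoprotein lipase, was at 24.7, 1.66, 9.37 and 2.18. All 3 were highest in FL GFP+, and Apoc2 was also more than 2-fold higher in BM GFP+ than in BM GFP-, as Afp was.

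Apoe, the ligand by which lipid particles are taken up, was at 923, 633, 848 and 932 FPKM. It was the most abundant of the 39 in every sample, and the highest of its values was in BM GFP-. Macrophages are a known source of Apoe. The 11 macrophage markers in the tables summed to 53.4, 54.2, 273 and 101 FPKM, with 6, 2, 4 and 2 of them at 0 and Vsig4 at 0 in all samples. Their part in the Apoe values was not tested.

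Apoc1, which lies beside Apoe in the genome, was at 0, 4.33, 0 and 0.726 FPKM. Apoh, Apoc3 and Apom were at 1.30, 0.810 and 2.19 FPKM in FL GFP- and at 0, 0 and 0.366 in FL GFP+, with 0 in BM. These 4 were higher in FL GFP- than in FL GFP+, opposite to Apoa1 and Apoa2. Apob, the large protein of low-density lipoprotein, was at 0.738, 0, 0 and 0.169 FPKM. Apoa4 was at 0 throughout.

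Of the 7 protease inhibitors and related proteins, 6 were more than 2-fold higher in FL GFP+ than in FL GFP-, against 11.1% of all rows in a contrast the genes were chosen on, and the seventh, Serpinc1 (antithrombin), was at 0 throughout. Serpina6, which carries corticosteroids, was at 24.8, 5.10, 0 and 0.375 FPKM. Itih2, a heavy chain of the inter-alpha-trypsin inhibitor, was at 20.8, 0.0255, 0 and 0.0823. Ambp, the precursor of the light chain of the same inhibitor, was at 12.96, 0.0755, 0 and 0. Both chains were above 10 FPKM in FL GFP+ and under 0.1 in the other 3 samples, with log2 differences of 4.41 and 3.70 between the FL fractions. Serpinf2, the inhibitor of plasmin, was at 8.80, 1.85, 0 and 0.480. Serpina1a and Serpina1b, copies of the antitrypsin gene, were at 2.64 and 4.03 FPKM in FL GFP+ and at 0.468 and 1.27 in FL GFP-. Their sequences are nearly identical, so the division of reads between them is uncertain.

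Clotting and kinin genes were split. Vtn, vitronectin, an adhesive protein of plasma and matrix, was at 47.9, 0, 0 and 0.250 FPKM. Its log2 difference between the FL fractions, 5.61, was the largest of the 39 genes. F10, clotting factor X, was at 6.90, 1.65, 18.9 and 9.87, with both BM samples above both FL samples. Kng1, the precursor of kinins, was at 3.12, 0.249, 0 and 0.103.

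The fibrinogen chains did not keep to a common ratio. Fga was at 0.105 FPKM in FL GFP+ and 2.001 in FL GFP-, Fgb at 0 and 1.32, and Fgg at 3.24 and 1.85. All 3 were at 0 in both BM samples. The chains form a single protein and their genes are neighbours on chromosome 3. In FL GFP- they lay within 2-fold of each other, and in FL GFP+ Fgg stood above the other chains. F2, prothrombin, was at 0, 0.238, 0 and 1.03 FPKM, and Plg, plasminogen, at 0, 0.168, 0 and 0.0301.

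**Figure D3:**
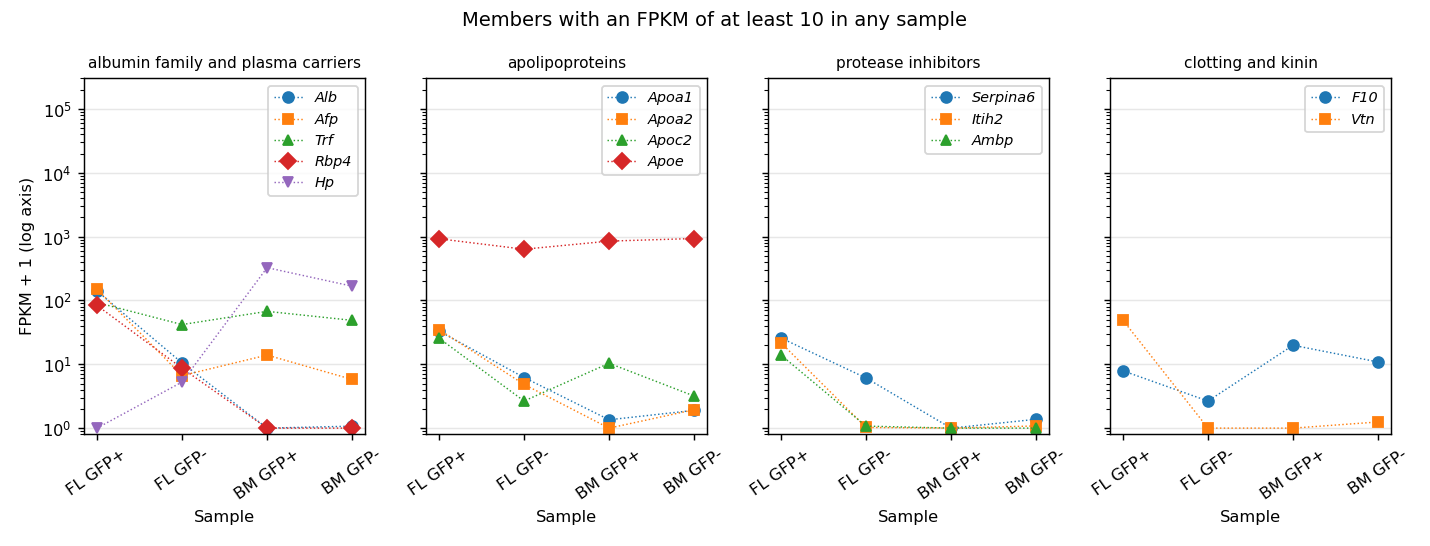
FPKM + 1, on a log axis, of the 14 liver genes that reached 10 FPKM in at least 1 sample, in a panel for each role; each point is 1 sample and the dotted lines only join the points of a gene. Alb, Rbp4, Vtn, Itih2 and Ambp drop from FL GFP+ to the other samples, Apoe stays level, and Hp is highest in BM.

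Regulators and enzymes were the group with the lowest summed FPKM in the FL samples, at 6.29 and 1.18. Hnf4a, the nuclear receptor that maintains hepatocyte identity, was at 6.29, 1.18, 2.68 and 4.15 FPKM. It was highest in FL GFP+, but the values in BM lay above that in FL GFP-. Foxa2, a pioneer factor of the endoderm, was at 0, 0, 0.144 and 0. Cps1, the entry enzyme of the urea cycle, was at 0 in 3 samples and at 0.0367 in BM GFP-, and Tat, tyrosine aminotransferase, at 0 in the same 3 and at 0.142 in BM GFP-. Dlk2, a relative of the hepatoblast marker Dlk1, was at 0, 0, 0 and 0.0716, whereas Dlk1 itself was at 8.96, 4.09, 0 and 0.0753. Cps1, Tat and Fabp1, which stand for metabolism among the 39, were all at 0 in FL GFP+. They were among 16 genes at 0 there, secretory ones included, and Fabp1 was at 3.92 FPKM in FL GFP-.

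Between the FL fractions, 18 of the 39 genes (11.1% of all rows) were more than 2-fold higher in FL GFP+ and 11 (25.8% of all rows) were more than 2-fold lower, with 3 within 2-fold and 7 at 0 in both. The genes were chosen on this contrast, so the counts are a description. On the log2(FPKM + 1) scale with a difference past 1, the counts were 17 (7.83% of all rows) and 7 (12.3%). By role, 4 of 9 carriers were higher and 3 lower, 4 of 10 apolipoproteins were higher and 4 lower, 6 of 7 inhibitors were higher and 0 lower, 3 of 8 clotting and kinin genes were higher and 4 lower, and Hnf4a was the only higher one of the last 5. The higher genes and the lower genes differed in level: the highest FL GFP- value among the genes seen in FL GFP- and not in FL GFP+ was 4.33 FPKM, for Apoc1. Vtn and Apob were the only genes seen in FL GFP+ and not in FL GFP-. The median log2 difference of the 39 was 0.54, against 0 over all rows.

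The same GFP contrast in BM does not use the FL samples on which Alb and Afp were chosen, although the genes were listed with results of all 4 samples known. There, 3 of the 39 genes (13.4% of all rows) were more than 2-fold higher in BM GFP+, namely Afp, Apoc2 and Foxa2. When FPKM totals were made equal, 2 were, and Afp was no longer among them. In the other direction 17 genes (27.3% of all rows) were more than 2-fold higher in BM GFP-. Of the 17, however, 16 were listed at 0 in BM GFP+ and reached at most 1.03 FPKM in BM GFP-, and with log2(FPKM + 1) past 1 only 1 of them, F2, remained (8.67% of all rows), beside 2 higher in BM GFP+ (9.01%). Afp was 2.70-fold and Apoc2 4.30-fold higher in BM GFP+, Hp 1.96-fold and F10 1.91-fold. The erythroblast markers were also higher in BM GFP+, for example Hbb-b1, a beta globin, at 630, 623, 14659 and 2042 FPKM, and 6 of the 9 were past 2-fold in BM against 2 of the 9 in FL. They summed to 1985, 1929, 25187 and 3559 FPKM, with none at 0 in any sample. Their part in the BM differences was not tested. The median log2 difference of the 39 in BM was 0, as over all rows.

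**Figure D4:**
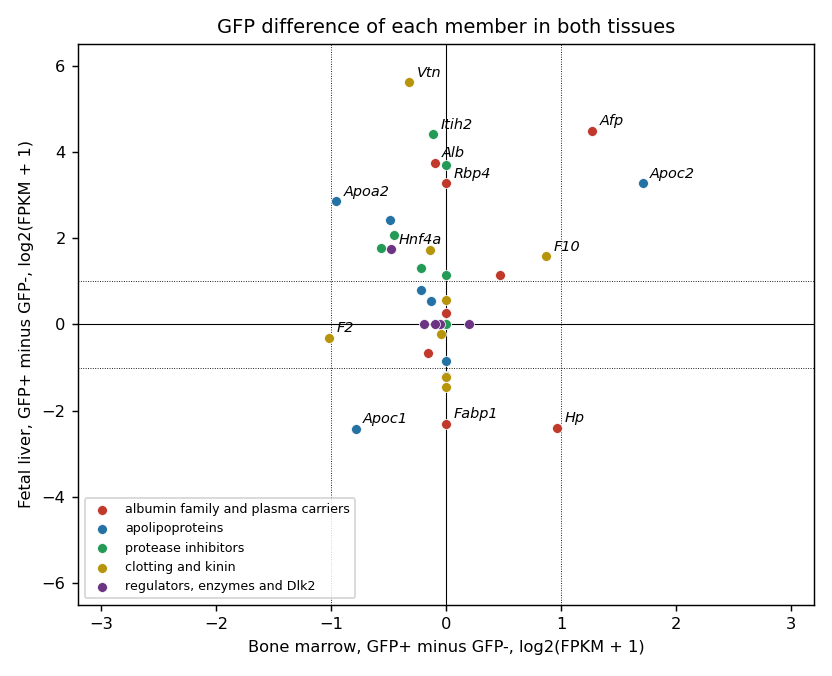
GFP+ minus GFP- difference on the log2(FPKM + 1) scale in BM (x axis) and in FL (y axis) for each of the 39 liver genes, coloured by role, with dotted lines at 1 and -1. Vtn, Itih2, Alb and Rbp4 lie high on the y axis and near 0 on the x axis, Afp and Apoc2 are past 1 on both, and Hp lies low on the y axis.

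Read across both tissues, 2 genes, Afp and Apoc2, were past 2-fold higher in GFP+ in FL and in BM, as were 473 of all 23906 rows. Afp lost the BM call with equal FPKM totals, at a log2 difference of 0.85. Ahsg, Apoc1, F2 and Plg, all under 5 FPKM in every sample, were past 2-fold lower in both. Rows lower in both tissues were not counted over the whole table, so nothing is read from these genes. Each tissue taken alone, 25.8% of all rows were lower in GFP+ in FL and 27.3% in BM. For 10 genes the directions were opposite, higher in GFP+ in FL and lower in BM, and over all rows 8.55% were opposite in either order. In BM these 10 genes were all under 1 FPKM.

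Between the GFP- samples, a contrast that also leaves out FL GFP+, 21 of the 39 genes (16.9% of all rows) were more than 2-fold higher in FL GFP- than in BM GFP-, and 10 (22.5% of all rows) were more than 2-fold lower. The genes seen in FL GFP- and not in BM GFP- were led by Rbp4 at 7.67 FPKM. Alb differed by 3.29 on the log2 scale, Fabp1 by 2.30, Serpina6 by 2.15, Ttr by 1.94 and Apoa1 by 1.71. Carriers (5 of 9 higher), apolipoproteins (6 of 10), inhibitors (5 of 7) and clotting genes (5 of 8) all contributed, while 0 of the last 5 genes were higher. With log2(FPKM + 1) past 1, the counts were 14 higher (7.47% of all rows) and 3 lower (8.41%), the latter being Hp, F10 and Hnf4a. Low levels of several secretory genes were thus measured in the FL GFP- sample too. With BM GFP+ in place of BM GFP-, a comparison added after the data were seen, 23 genes were higher in FL GFP- (24.6% of all rows) and 6 were lower (17.5%).

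**Figure D5:**
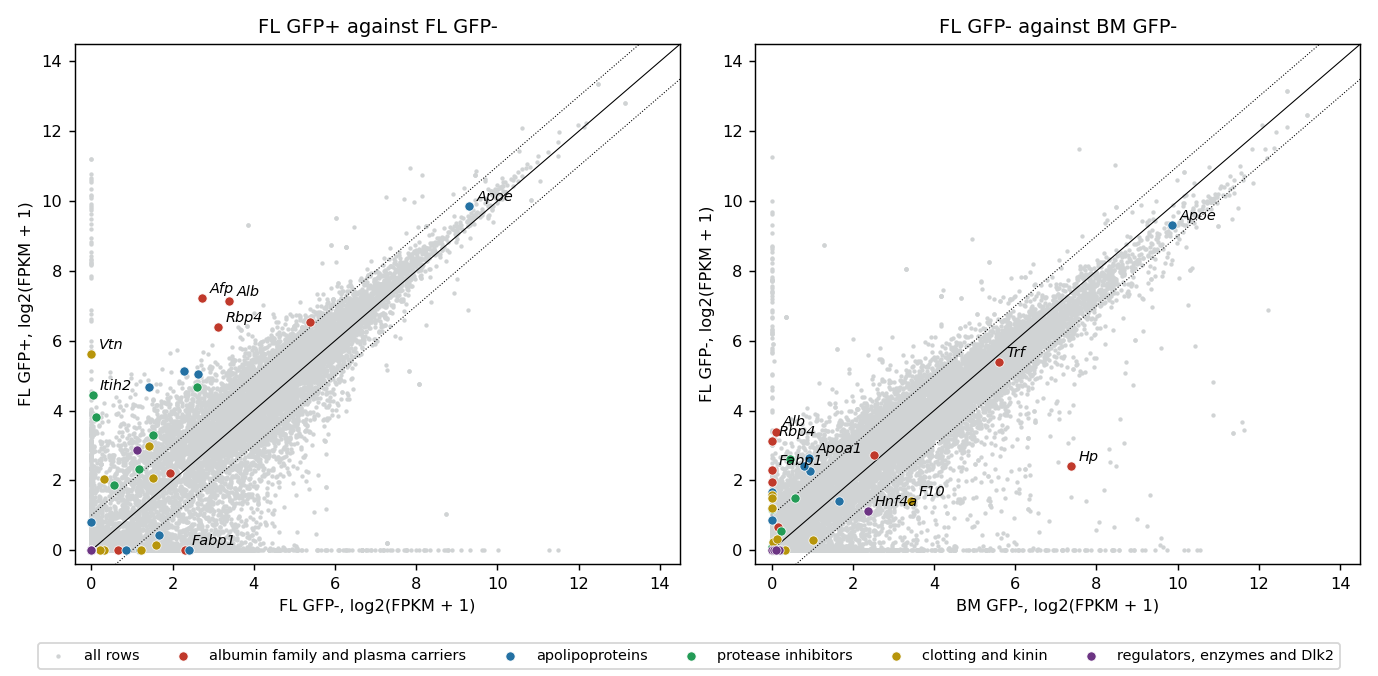
Level of each gene on the log2(FPKM + 1) scale in FL GFP+ against FL GFP- (left) and in FL GFP- against BM GFP- (right); grey points are all 23906 rows, coloured points the 39 liver genes by role, the solid line marks equal levels and the dotted lines a difference of 1. Alb, Afp, Rbp4, Vtn and Itih2 lie far above the line on the left, and Hp lies below it on the right.

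Against BM GFP+, 20 genes (16.8% of all rows) were more than 2-fold higher in FL GFP+ and 3 (22.3% of all rows), Hp, F10 and Foxa2, were more than 2-fold lower. Alb, Rbp4, Apoa2, Serpina6, Vtn, Itih2 and Ambp were listed at 0 in BM GFP+, so no fold is given for them. Apoa1 was 91.4-fold, Afp 11.5-fold and Apoc2 2.63-fold higher in FL GFP+. With BM GFP- as the BM sample, a comparison added after the data were seen, 19 genes were higher in FL GFP+ (13.2% of all rows) and 8 were lower (33.6%).

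A ranking by the smallest of the log2 differences of FL GFP+ over the other 3 samples uses the values the genes were chosen by, and is given as a description. Vtn was at rank 25 of 23906, Itih2 at 29, Alb at 35, Ambp at 37, Afp at 43, Rbp4 at 49 and Apoa2 at 73. A further 7 of the genes, Apoa1, Serpina6, Serpinf2, Kng1, Serpina1a, Apoc2 and Serpina1b, at ranks 112 to 670, also had a smallest difference past 1. Over all rows 895, or 3.74%, did. The 14 genes that did so span carriers, apolipoproteins, inhibitors and clotting genes, and the lowest in level was Serpina1a. The 10 rows at the head of the ranking that are not among the 39 were Brsk2, which shares its 4 values with Mir3104, then Snord91a, Snord53, Mir15b, Mir199a-1, Mir6966, Mir7056, Mir6896 and Mir6920, at 714 to 2384 FPKM in FL GFP+. Short RNA genes whose symbols start with Mir or Snor made up 28 of the first 100 rows.

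Neighbouring genes had like levels in some places and unlike levels in others. Alb and Afp are neighbours on chromosome 5 and were both high in FL GFP+, the values they were chosen for. Apoa1 and Apoa4, with Apoc3 between them on chromosome 9, were at 32.1, 0 and 0 FPKM there. Apoc2, Apoc1 and Apoe, close together on chromosome 7, were at 24.7, 0 and 923. Serpina6 lies near Serpina1b and Serpina1a on chromosome 12, and all 3 were above 0 in both FL samples. In FL GFP+ they were at 24.8, 4.03 and 2.64 FPKM, so their levels differed.

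Liver genes outside the 39 were read from lists of other hepatocyte genes. Over all rows, 11.1% were more than 2-fold higher in FL GFP+ than in FL GFP- and 25.8% were lower. Of 31 other secretory genes, 6 (19.4%) were higher, 5 (16.1%) were lower and 17 were at 0 in both. The 3 with the highest value in any sample were Serpind1 (heparin cofactor) at 16.4, 1.05, 0 and 0.0324 FPKM, F12 (clotting factor XII) at 13.95, 0, 0 and 0, and Orm1 (an acute phase protein) at 0, 0, 10.2 and 1.61. Serpind1 and F12 followed the pattern of Itih2 and Vtn, and Orm1 that of Hp. Of 20 enzymes and transporters, 2 were higher in FL GFP+ and 9 (45%) lower. The most abundant were Asl, Ugt1a1 and Fbp1. Asl, a urea cycle enzyme used in many cells, was at 69.8, 32.6, 21.1 and 42.0 FPKM, and Fbp1, an enzyme of gluconeogenesis, at 0, 0, 15.9 and 11.3. Ugt1a1, which conjugates bilirubin, was at 0, 12.4, 7.69 and 18.995. Other Ugt1a symbols, such as Ugt1a9, carried the same values, so these cannot be assigned to Ugt1a1 alone.

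Of 19 hepatoblast genes and liver transcription factors, 1 was more than 2-fold higher in FL GFP+ (5.26%), the hepatoblast marker Dlk1 at 8.96 against 4.09 FPKM in FL GFP-, and 9 were lower (47.4%), beside 11.1% and 25.8% of all rows. Krt18, a keratin of simple epithelia, led at 5.33, 36.2, 13.7 and 76.8 FPKM, followed by H19 and Igf2. Foxa1 and Onecut1, factors of early liver development, were at 0 in all 4 samples. Prox1, an early hepatoblast factor, was at 0, 1.75, 0 and 0.0203.

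Markers of other liver cell types were compared between the FL samples. Cholangiocyte markers summed to 22.8, 15.1, 19.1 and 10.9 FPKM, with Krt19 and Sox9 at 0 in both FL samples and Spp1, a secreted phosphoprotein, at 21.1 and 4.60. Krt7 and Epcam were at 1.66 and 0 FPKM in FL GFP+ and at 7.85 and 2.64 in FL GFP-. Sinusoidal endothelial markers summed to 9.21, 20.7, 104 and 41.8 FPKM, and Fcgr2b, Clec4g and Kdr were the most abundant. Fcgr2b was at 7.57, 1.67, 99.2 and 40.5 FPKM, so it made up most of the sums in FL GFP+ and in BM. Clec4g was at 0.477, 9.6005, 0 and 0.0731 FPKM, and Kdr at 0.0315, 3.84, 3.10 and 0.413. Stellate and mesenchymal markers summed to 0.0831, 0.210, 8.25 and 3.82, with 5 of the 8 at 0 in each FL sample. Among them Col3a1 was at 0.0159, 0.0262, 3.82 and 0 FPKM, Pdgfrb at 0, 0, 3.47 and 3.16, and Reln at 0, 0.154, 0.577 and 0.0594. Spp1 and Fcgr2b were higher in FL GFP+ and most of the others were not, and the part of these cells in the liver gene values was not tested.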

How the data were processed

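RNA from 4 samples of LSK-SLAM cells (FL GFP+, FL GFP-, BM GFP+ and BM GFP-, 1 each) was sequenced from SMARTer libraries, which amplify cDNA from little RNA. The authors deposited FPKM made with TopHat and Cufflinks (version 2.2.1 in the submitters' processing notes), corrected for fragment bias and multiple mapping and normalized across samples with Cuffnorm. The notes name the build mm10 and the study's methods an earlier one, and the files carry symbols only, so the coordinates printed are those of the RefSeq table for GRCm38.p6. Read counts are not in the files. Depth, and with it the precision of a value, cannot be computed from them. SMARTer amplification and the correction for multiple mapping can move low values and those of near-identical genes.

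Groups were taken from the deposited labels. With 1 sample per group no test was run. For each comparison, rows with an FPKM more than 2 times that of the other sample were counted, for the 39 genes and for all 23906 rows, without a filter. Differences used log2(FPKM + 1). The genes and lists were chosen with earlier results of these data known. Genes of the 39 that reached 10 FPKM in any sample, and the regulators and enzymes, are named with their values. So are the 3 most abundant genes of each other hepatocyte, hepatoblast, cholangiocyte, endothelial and stellate list. The 10 rows leading the FL GFP+ ranking are named with their range. Other genes named were chosen after their values were seen. The counting was tested on simulated data. Motifs were searched in the 250 bases before each start. A motif and a gene of the lists are not reported here. Alternatives were a pseudocount of 0.1, filters at 1 and 10 FPKM, 1.5-fold and 4-fold thresholds, and rescaling to equal totals or upper quartiles. Python 3.11.15 with numpy 2.4.6, pandas 2.3.3 and matplotlib 3.10.9 was used.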

Additional observations from a re-analysis of the deposited data

Results flagged for a closer look

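For 10 genes the GFP+ sample was past 2-fold higher than the GFP- sample in FL and past 2-fold lower in BM. With 1 sample per group the difference between the tissues was not tested. On the log2(FPKM + 1) scale the GFP difference in FL minus that in BM was 5.93 for Vtn (5.61 in FL and -0.32 in BM), 4.52 for Itih2 (4.41 and -0.11), 3.85 for Alb (3.74 and -0.10), 3.81 for Apoa2 (2.85 and -0.96) and 2.91 for Apoa1 (2.42 and -0.49). It was 2.54 for Serpina6 (2.08 and -0.46), 2.35 for Serpinf2 (1.78 and -0.57), 1.86 for Kng1 (1.72 and -0.14), 1.53 for Serpina1a (1.31 and -0.22) and 1.02 for Apob (0.80 and -0.23). In BM all 10 genes were under 1 FPKM in both samples, and 8.55% of all rows were past 2-fold in opposite directions.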

How the results depend on the processing

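Counts that rest on low values moved, and in 2 comparisons the balance of higher and lower genes turned: in BM GFP+ against BM GFP- it went from 3 higher and 17 lower to 2 and 1 with log2(FPKM + 1) past 1 or with a filter at 1 FPKM, and to 1 and 0 with a filter at 10 FPKM, and in FL GFP- against BM GFP- from 21 and 10 to 0 and 1 with the filter at 10 FPKM. With log2(FPKM + 1) past 1, the lower counts became 7 (from 11) in FL GFP+ against FL GFP-, 1 (from 17) in BM GFP+ against BM GFP- and 3 (from 10) in FL GFP- against BM GFP-, and with an FPKM of at least 1 in either sample they became 7, 1 and 4. With at least 10 FPKM they became 0, 0 and 1, and the higher counts became 11 (from 18) and 1 (from 3) for the GFP contrasts in FL and BM, 10 (from 20) in FL GFP+ against BM GFP+ and 0 (from 21) in FL GFP- against BM GFP-. A threshold of 1.5-fold gave 5 higher in BM GFP+. With the other BM sample, chosen after seeing the data, 8 (from 3) were lower in FL GFP+ and 6 (from 10) in FL GFP-. Without Mir and Snor rows the shares of summed FPKM were 0.293%, 0.156%, 0.142% and 0.178%. Of 76 differences of single genes, 36 were past 1 and all 36 kept their sign with a pseudocount of 0.1 and with both rescalings. With equal totals, which shifted all genes by -0.46 to 0.63 depending on the comparison, 4 of the 36 fell under 1 in size (Afp in BM 0.85, Trf in FL 0.90, F10 between the GFP+ samples -0.75, Hnf4a between the GFP- samples -0.99), and with equal upper quartiles 1 did (Trf in FL 0.92). The small differences of Trf (-0.22 to 0.20) and Apoc2 (-0.26 to 0.02) between the GFP- samples changed sign with equal totals. No paired analysis was possible because each group held 1 sample, and leaving out a replicate could not be run for the same reason.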
